A study of Mus musculus with 14 samples.

Results

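Activin and TGF-β signalling genes were examined in mouse colon with and without glucocorticoid receptor (GR) in the intestinal epithelium, on regular water and during acute colitis. The members were 10 genes, namely Inhba, Inhbb, Tgfb1, Tgfb2, Tgfb3, Fst, Fstl3, Acvr1, Smad7 and Tgfbi, found by matching the RefSeq accession of each probe to a gene table. All 10 were on the array, through 11 of its 41174 probes, and all 10 were among the 15537 named genes tested, of 19096 named genes on the array. The genes were chosen by pathway with earlier log2 differences between groups of these arrays known, among them the different response of Inhba to DSS in the 2 genotypes, so the values of Inhba are given as a description.

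Colonic total RNA of female C57BL/6 mice aged 4 to 6 months was hybridised to 14 single-colour Agilent whole mouse genome arrays, 1 array per labelled replicate. The labels give no further detail on how replicates were collected, so p values measure the spread between these samples. Flox mice, the controls, carry loxP-flanked alleles of the GR gene Nr3c1 and express it. GR iKO mice carry the same floxed alleles and a Cre recombinase driven by the villin promoter, which is active in intestinal epithelial cells, so other cell types of the colon keep the gene. Mice of each genotype were given regular water (n = 4 Flox and n = 4 GR iKO) or, for 7 days, 2.5% dextran sulfate sodium (DSS) in the water, a chemical that damages the lining of the colon (n = 3 Flox and n = 3 GR iKO).

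Activins and TGF-βs are secreted dimeric ligands of 1 superfamily. They bind pairs of type II and type I receptor kinases, which phosphorylate SMAD proteins that then enter the nucleus and regulate target genes. Follistatins trap activins outside the cell, TGF-β is held latent in the matrix until it is released, and inhibitory SMADs act back on the receptors. In the gut these ligands are known for roles in epithelial restitution, immune tolerance and the deposition of matrix after injury.

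The promoters of 4 ligand genes, the ligands described first below, are shown. These genes were called higher on DSS in at least 1 genotype. So was the ligand gene Tgfb3, for which no promoter sequence was available. Each sequence is the 250 bases before the transcription start that RefSeq gives (build GRCm38.p6), written in the direction of transcription. The windows of Inhba and Tgfb2 lie inside the annotated gene, downstream of its outermost start, so positions refer to the start used here and not to every start of the gene. Capitals mark matches to any of 7 motifs that were searched on both strands.
Inhba, chr13:16011601-16011850, plus strand: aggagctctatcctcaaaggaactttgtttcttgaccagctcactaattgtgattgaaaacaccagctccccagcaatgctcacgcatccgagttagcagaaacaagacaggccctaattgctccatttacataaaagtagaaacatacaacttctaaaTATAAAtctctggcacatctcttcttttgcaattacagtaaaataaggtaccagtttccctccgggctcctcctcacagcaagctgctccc
Inhbb, chr1:119422249-119422498, minus strand: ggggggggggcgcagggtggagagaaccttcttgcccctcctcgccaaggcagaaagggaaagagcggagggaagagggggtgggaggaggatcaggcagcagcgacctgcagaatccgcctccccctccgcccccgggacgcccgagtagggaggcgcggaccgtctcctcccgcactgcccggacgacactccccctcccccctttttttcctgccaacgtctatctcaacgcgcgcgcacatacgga
Tgfb1, chr7:25686752-25687001, plus strand: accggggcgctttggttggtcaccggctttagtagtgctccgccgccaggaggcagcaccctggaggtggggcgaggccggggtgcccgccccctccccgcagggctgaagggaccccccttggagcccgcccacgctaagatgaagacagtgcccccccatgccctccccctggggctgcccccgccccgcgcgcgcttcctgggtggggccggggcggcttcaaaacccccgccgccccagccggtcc
Tgfb2, chr1:186705990-186706239, minus strand: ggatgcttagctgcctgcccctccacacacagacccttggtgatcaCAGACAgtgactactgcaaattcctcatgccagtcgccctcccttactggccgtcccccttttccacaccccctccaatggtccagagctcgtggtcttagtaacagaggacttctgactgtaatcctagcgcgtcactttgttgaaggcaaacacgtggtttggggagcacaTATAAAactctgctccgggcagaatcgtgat
The core promoter element TATAAA was found in Inhba and in Tgfb2, where it began 91 and 31 bases before the start, and in 12.4% of all 32851 promoters of the table in the same window. The SMAD-binding motif CAGACA was found in Tgfb2, 204 bases before the start, and in 17.1% of all promoters. The other motifs had no match in these 4 windows. They were the AP-1 site TGANTCA, held by 6.75% of all promoters, the cyclic AMP response element TGACGTCA, held by 1.55%, and the palindromic SMAD motif GTCTAGAC, held by 0.167%. The NF-kB site was in 0.356% of all promoters and the palindromic glucocorticoid response element in 0.00913%. None of these motifs overlapped another in the printed windows. Of the other members, Fstl3, Tgfbi and Acvr1 also had a promoter in the table. In that of Fstl3, CAGACA began 162 and TATAAA 29 bases before the start. The windows of Tgfbi and Acvr1 held none of the motifs.

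The targeted gene was checked first. The brightest Nr3c1 probe in GR iKO colons had 57.3% of the Flox signal on water (exact permutation p = 0.0286, the smallest that 4 against 4 arrays allow) and 56.1% on DSS (exact p = 0.1, the smallest for 3 against 3). The 3 other probes had 47.6% to 55.7% on water, and on DSS 55.2%, 57.1% and, at 1 probe whose arrays overlapped, 75.7% (exact p = 0.5). These are values of whole colon that includes GR-positive cells outside the epithelium. Array signal was lower on DSS, with a 75th percentile of 262 to 713 intensity units against 707 to 1003 on water, and Flox DSS replicate 4 was the lowest. All 8 epithelial markers were well above background on all 14 arrays. The arrays varied more on DSS, with a median probe SD of 0.26 (Flox) and 0.34 (GR iKO) on the log2 scale against 0.18 and 0.17 on water. The variance was larger on DSS for 8 of the 10 members, near the share of all tested probes (82.8%). Every level below is a log2 signal after subtraction of its array's 75th percentile, and differences are log2 differences of group means on that scale with their standard error (SE). Calls are those of limma at an adjusted p below 0.05, with adjustment over all 29520 tested probes.

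The members were compared between DSS and water in each genotype. In Flox colons 8 members were called higher on DSS, 1 was called lower (Smad7) and 1 was not called (Acvr1), where 47.3% of all tested probes were called, 21.8% higher and 25.4% lower. In GR iKO colons 5 members were called higher (Inhba, Inhbb, Fst, Tgfb1 and Tgfbi) and none lower, where 38.9% of all tested probes were called, 19.1% higher and 19.8% lower. The median change of the 10 members was 1.09 in Flox and 1.10 in GR iKO, against −0.09 and −0.02 over all tested probes. The arrays of water and DSS did not overlap for 9 members in Flox, against 57.4% of all tested probes (25.8% higher and 31.5% lower), and for 6 in GR iKO, all higher, against 46.3% (22.6% higher and 23.7% lower). Calls in Flox leaned on the small number of DSS arrays. The 9 called members became 4 without Flox DSS replicate 1 and 5 without Flox DSS replicate 2. Calls over all tested probes fell as well, from 13949 to 9190 and 9779 in the same settings. The scale also mattered. Measured against 7 bright spike-in control probes, whose amount per array is not given in the sources used here, the difference between DSS and water moved by −2.32 in Flox and −0.92 in GR iKO for every gene, which put the median of all probes at −2.41 and −0.95, and on that scale only Inhbb and Fst were higher on DSS in Flox, and Inhba, Inhbb, Fst, Tgfb1 and Tgfbi in GR iKO. Changes below, of members and of other genes, are relative to each array's 75th percentile and move by these amounts on the spike-in scale.

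**Figure D1:**
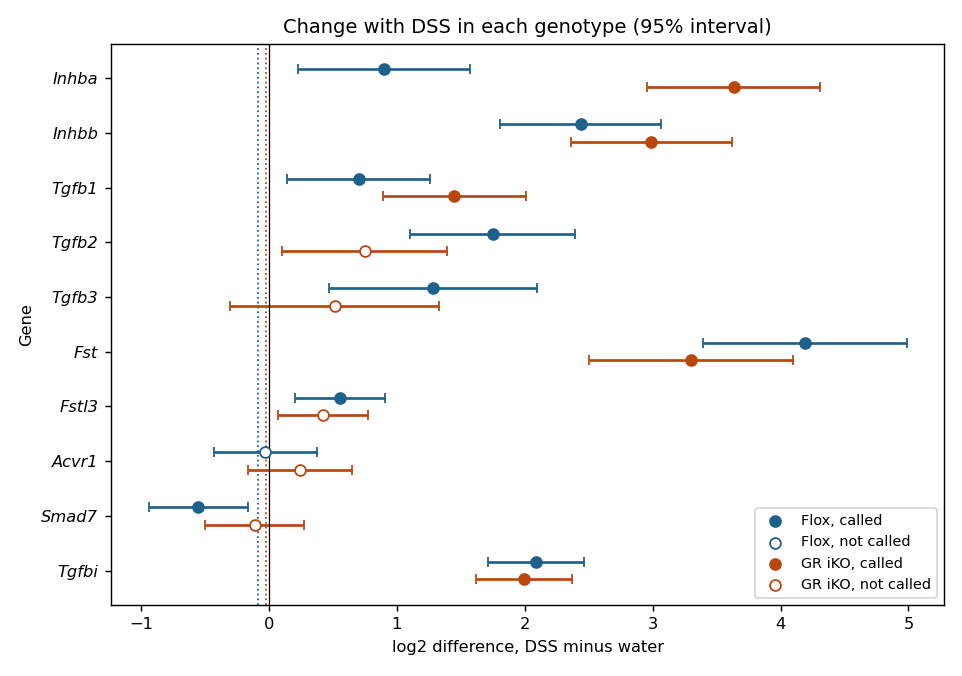
Change with DSS of the 10 members in Flox (blue) and GR iKO (orange) colons, as log2 difference of DSS minus water with its 95% confidence interval, on values relative to each array's 75th percentile. Filled points were called at an adjusted p under 0.05, open points were not, and dotted lines mark the median of all tested probes (−0.09 in Flox and −0.02 in GR iKO). Fst changed most in Flox (4.19) and Inhba most in GR iKO (3.63).

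Inhba encodes the βA subunit, whose homodimer is activin A. On water its level was −1.99, −1.98, −1.69 and −2.25 in Flox and −2.07, −1.62, −2.16 and −2.31 in GR iKO colons. On DSS it was −0.95, −1.39 and −0.91 in Flox and 1.96, 0.75 and 2.08 in GR iKO colons. The water groups overlapped, every DSS colon lay above every water colon, and the 3 GR iKO DSS colons lay above all others. The change with DSS was 0.90 (SE 0.31) in Flox, a 1.86-fold rise of the signal, and 3.63 (SE 0.31) in GR iKO, a 12.4-fold rise. The call of Inhba in Flox was lost when any 1 of the 3 Flox DSS arrays, or Flox water replicate 4, was left out. On the same slide, the DSS change was 0.59 to 1.34 in Flox and 2.91 to 4.39 in GR iKO over the 3 slides that held a pair.

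Inhbb encodes the βB subunit of activin B. Its brighter probe read −3.25, −3.50, −3.16 and −3.48 in Flox and −3.44, −2.90, −3.52 and −3.84 in GR iKO colons on water. On DSS it read −0.94, −0.55 and −1.25 in Flox and −0.33, −0.18 and −0.80 in GR iKO colons. DSS and water arrays did not overlap in either genotype, and the 2 DSS groups overlapped with each other. It rose 5.41-fold in Flox (log2 difference 2.44, SE 0.29, adjusted p = 4.51e-05) and 7.94-fold in GR iKO (2.99, SE 0.29, adjusted p = 2.13e-05). The other Inhbb probe was well above background on only 5 of 14 arrays and on none of the GR iKO water arrays. It was called higher on DSS in Flox (1.71, SE 0.32, adjusted p = 0.000886), while in GR iKO its change of 0.60 (SE 0.32, adjusted p = 0.151) was not called and its bound was at least 1.26-fold. A bound of this kind leaves the size of the GR iKO response at that probe unknown.

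Among the TGF-β ligands, Tgfb1, the isoform made by many immune and stromal cells, had levels of −2.91, −2.77, −2.95 and −2.69 in Flox and −2.98, −2.48, −3.04 and −3.03 in GR iKO colons on water. On DSS these were −1.98, −1.80 and −2.60 in Flox and −0.85, −1.74 and −1.71 in GR iKO colons. Flox DSS replicate 4 lay close to the water arrays, whereas all GR iKO DSS colons were well clear of them. The change was 0.70 (SE 0.26, adjusted p = 0.0396) in Flox and 1.45 (SE 0.26, adjusted p = 0.00102) in GR iKO. The Flox call was lost in 7 of 25 alternative settings, with an adjusted p of up to 0.216 (without Flox DSS replicate 2), while the GR iKO call held in all 25.

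Tgfb2 read −1.96, −2.13, −2.23 and −2.36 in Flox and −1.97, −2.01, −2.23 and −2.72 in GR iKO colons on water. On DSS it read −0.45, −0.49 and −0.32 in Flox and −2.24, −0.92 and −1.29 in GR iKO colons. The Flox DSS colons were tightly grouped above all other arrays, and GR iKO DSS replicate 1 stayed within the range of water colons. The change was 1.75 (SE 0.30, adjusted p = 0.00052) in Flox and 0.75 (SE 0.30, adjusted p = 0.065) in GR iKO, which became 1.12 (adjusted p = 0.0122) without GR iKO DSS replicate 1. Tgfb3, the remaining isoform, read 1.34, 1.48, 0.91 and 0.65 in Flox and 1.68, 1.21, 0.94 and 0.61 in GR iKO colons on water. Its DSS levels were 2.51, 2.70 and 1.93 in Flox and 1.67, 1.82 and 1.37 in GR iKO colons. Tgfb3 rose in Flox (1.28, SE 0.37, adjusted p = 0.014), a call that was lost without Flox DSS replicate 1 (adjusted p = 0.0854) or 2 (adjusted p = 0.0979). In GR iKO its arrays overlapped between water and DSS (0.51, SE 0.37, adjusted p = 0.306).

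**Figure D2:**
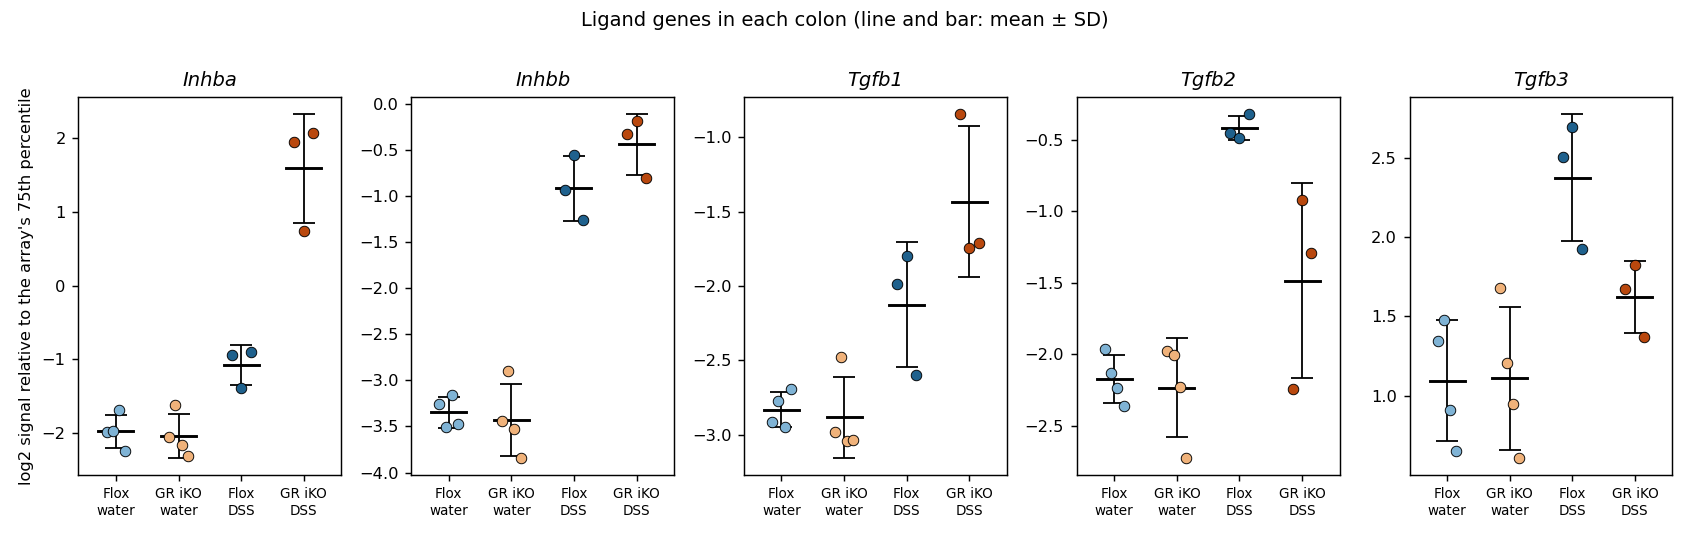
Level of the 5 ligand genes in each colon, as log2 signal relative to its array's 75th percentile, with 1 point per array (n = 4 per water group and n = 3 per DSS group) and the mean ± SD of each group. In the GR iKO DSS group Inhba and Tgfb1 lie above, and Tgfb2 and Tgfb3 lie below, every colon of the Flox DSS group. The water groups overlap for all 5 genes. No gene was called between genotypes, and on DSS the arrays of 22.8% of all tested probes did not overlap. Each panel has its own axis, and levels are not comparable between genes.

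Extracellular binding proteins of activin also rose. Fst encodes follistatin, which binds activins and blocks their access to receptors. On water it read −4.43, −4.52, −4.24 and −4.86 in Flox and −4.16, −4.29, −4.76 and −4.68 in GR iKO colons. On DSS it read 0.29, 0.02 and −1.28 in Flox and −0.82, −1.94 and −0.77 in GR iKO colons. All 6 DSS colons lay above all 8 water colons, and the DSS groups overlapped. The rise was 18.2-fold in Flox (4.19, SE 0.37, adjusted p = 6.89e-06), the largest of the 10 members there and the 175th highest of all tested probes, and 9.83-fold in GR iKO (3.30, SE 0.37, adjusted p = 4.99e-05). Fstl3, a related secreted antagonist, changed less. Its levels ran from −1.67 to −1.35 in Flox and −1.89 to −1.54 in GR iKO on water, and from −1.16 to −0.89 and −1.38 to −1.13 on DSS. It was called in Flox (0.55, SE 0.16, adjusted p = 0.0142) but not in GR iKO (0.42, SE 0.16, adjusted p = 0.0574), although no array overlapped between water and DSS in either genotype.

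Acvr1, a type I receptor that also serves bone morphogenetic proteins, stayed between −0.41 and 0.51 on all arrays. Its change with DSS was −0.03 (95% interval −0.43 to 0.37) in Flox and 0.24 (−0.16 to 0.65) in GR iKO. Smad7, an inhibitory SMAD that acts on the TGF-β receptor complex and is itself a target of the pathway, read −0.14, −0.35, −0.16 and 0.20 in Flox and −0.19, −0.05, −0.04 and −0.12 in GR iKO colons on water. On DSS it read −0.61, −0.62 and −0.76 in Flox and −0.50, −0.15 and 0.02 in GR iKO colons. Flox DSS colons were below every water colon, and GR iKO DSS colons overlapped theirs. Smad7 fell by 0.55 (SE 0.18, adjusted p = 0.0233) in Flox and its change in GR iKO was −0.11 (SE 0.18, adjusted p = 0.649). The Flox call did not survive leaving out any single Flox DSS array, where the adjusted p was 0.0848, 0.0809 and 0.075.

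Tgfbi, a matrix protein induced by TGF-β, read 3.75, 3.70, 3.83 and 3.93 in Flox and 3.84, 3.45, 3.78 and 3.65 in GR iKO colons on water. On DSS it read 6.07, 6.04 and 5.57 in Flox and 5.92, 5.46 and 5.63 in GR iKO colons. It rose in both genotypes, 4.25-fold in Flox (2.09, SE 0.17, adjusted p = 5.15e-06) and 3.97-fold in GR iKO (1.99, SE 0.17, adjusted p = 1.04e-05), and the interaction of genotype and DSS was −0.10 with a 95% interval of −0.63 to 0.43.

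**Figure D3:**
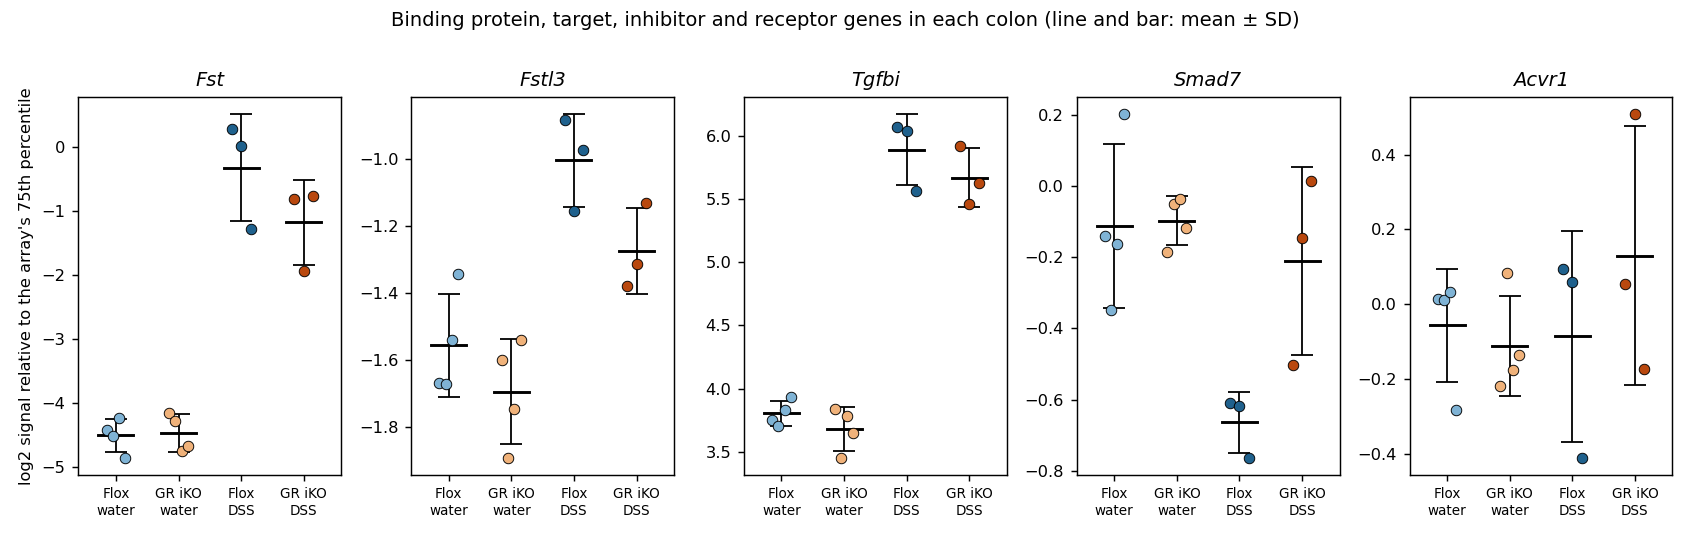
Level of Fst, Fstl3, Tgfbi, Smad7 and Acvr1 in each colon, as log2 signal relative to its array's 75th percentile, with 1 point per array (n = 4 per water group and n = 3 per DSS group) and the mean ± SD of each group. Fst and Tgfbi separate DSS from water colons in both genotypes, Smad7 is lowest in Flox DSS colons (−0.76 to −0.61), and Acvr1 overlaps in all groups.

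On water, no difference between GR iKO and Flox colons was detectable in these genes. The GR iKO minus Flox difference of the 10 members, each at its brightest probe, ran from −0.14 (Fstl3) to 0.04 (Fst), none had an unadjusted p under 0.05, and none was called, where 0.0237% of all tested probes (7) were called, 0.0169% higher and 0.00678% lower. The arrays of the groups overlapped for all 10 members, where 2.26% of tested probes did not overlap, 1.27% higher and 0.989% lower. For Inhba the 95% interval of this difference was −0.46 to 0.35.

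On DSS no member was called between the genotypes in limma, where only 6 probes (0.0203%) were called, 0.0169% higher and 0.00339% lower. Of the 10 members 2 had an unadjusted p under 0.05, Tgfb2 and Inhba, the latter chosen with this difference known, as had 17.8% of all tested probes. The arrays did not overlap for 5 members, 3 of them higher in GR iKO (Inhba, Tgfb1 and Smad7) and 2 lower (Tgfb2 and Tgfb3), against 22.8% of all tested probes that did not overlap, 11.2% higher and 11.6% lower. Inhba was 6.39-fold higher in GR iKO (2.68, 95% interval 1.81 to 3.54), given as a description, and was higher by 1.69 and 2.99 on the 2 slides that held both genotypes on DSS. Tgfb1 differed by 0.69 (SE 0.33, adjusted p = 0.297) and Smad7 by 0.45 (SE 0.23, adjusted p = 0.33), both upward on each of these slides. In the other direction Tgfb2 differed by −1.06 (SE 0.38, adjusted p = 0.178) and Tgfb3 by −0.75 (SE 0.48, adjusted p = 0.452), both downward on each slide. Fst differed by −0.85 on average (SE 0.47, adjusted p = 0.375), but the slides gave 0.51 and −2.23. The counts above use the brightest probe of each gene. Inhbb differed by 0.48 at its brighter probe (adjusted p = 0.559). At its dimmer probe it differed by −0.67 (adjusted p = 0.427), with arrays that did not overlap. The spike-in scale moved every gene of this comparison by 1.21, and the median of all probes to 1.24. The downward direction of Tgfb2, Tgfb3, Fst, Fstl3, Tgfbi and the dimmer Inhbb probe thus holds only relative to each array's 75th percentile.

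The difference between the DSS responses of the 2 genotypes was 2.74 (95% interval 1.78 to 3.69) for Inhba and −1.0 (−1.92 to −0.09, adjusted p = 0.295) for Tgfb2. No member was called for this interaction, as was no probe on the array (0%). An unadjusted p under 0.05 was found for 4388 probes (14.9%), among them 2 members at their brightest probe (Inhba and Tgfb2). At the brightest probe the other members ranged from −0.89 (Fst) to 0.75 (Tgfb1). The dimmer Inhbb probe also had an unadjusted p under 0.05. It was at −1.11 (95% interval −2.08 to −0.14, adjusted p = 0.279), against 0.55 (adjusted p = 0.571) at the brighter Inhbb probe.

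**Figure D4:**
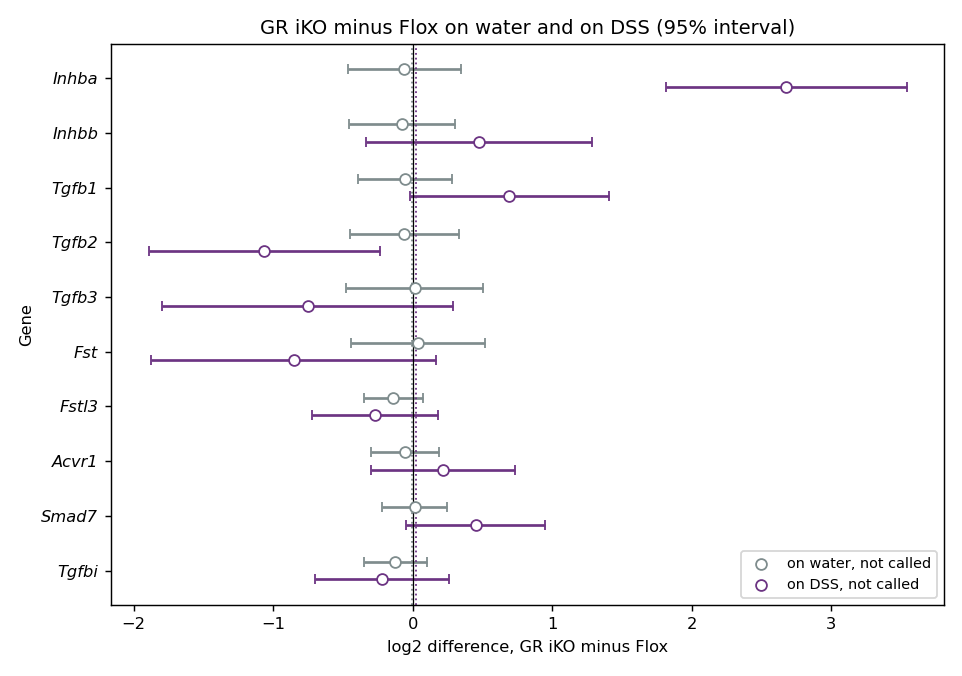
GR iKO minus Flox difference of the 10 members on water (grey) and on DSS (purple), as log2 difference with its 95% confidence interval, on values relative to each array's 75th percentile. Open points were not called at an adjusted p under 0.05, and dotted lines mark the median of all tested probes. Differences on water lie between −0.14 and 0.04, and on DSS between −1.06 (Tgfb2) and 2.68 (Inhba). On the spike-in scale all DSS points would move by 1.21 to the right, as would the median of all probes.

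Markers of other cells were measured in the same groups. No marker on these lists was called between genotypes on DSS, where the arrays of 22.8% of all tested probes did not overlap. In bulk colon, more cells of a type and more RNA per cell cannot be told apart. The mean level of 6 neutrophil markers, relative to the water arrays, was 4.90, 4.36 and 3.84 in Flox DSS replicates 1, 2 and 4 and 6.92, 5.32 and 6.61 in GR iKO DSS replicates 1, 3 and 4, without overlap, and only 2 of these markers were well above background on every array. Macrophage markers (7 of 7 tested) were at 0.89 to 1.67 and 1.37 to 2.22. Markers of smooth muscle, all 6 well above background on every array, were at 1.44, 1.17 and 1.80 in the same Flox DSS replicates and at −0.63, 0.62 and 0.22 in the same GR iKO DSS replicates. Fibroblast markers (7 of 7 tested) were at 1.26 to 1.6 and 1.00 to 1.28. The epithelial markers ranged from −0.44 to 0.15 in Flox DSS and from −0.34 to 0.49 in GR iKO DSS colons. The part of these cell types in the results for Inhba, Tgfb1, Tgfb2 and Tgfb3 was not tested.

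The patterns most like that of Inhba, by Pearson correlation over the 14 arrays among 15536 other named genes, belonged to Ptges (r = 0.98) and Ptgs2 (r = 0.976), which encode successive enzymes of prostaglandin E2 synthesis, then Hcar2 (r = 0.968), a receptor for butyrate and nicotinic acid, Ppp1r15b (r = 0.966), a regulatory subunit of an eIF2α phosphatase, and Il12a (r = 0.964), a subunit of interleukin 12. These values describe the same 14 arrays, which share the DSS contrast. Ptgs2 had mean levels of −3.95 (Flox) and −3.92 (GR iKO) on water, −2.12 in Flox DSS and 0.31 in GR iKO DSS colons. For Inhba the means of the same groups were −1.98, −2.04, −1.08 and 1.59. Il12a was well above background on only 7 arrays. Among the members, the correlation with Inhba was 0.869 for Tgfb1, 0.81 for Inhbb, 0.713 for Tgfbi and 0.678 for Fst, and lowest for Smad7 (−0.166). Many genes outside the members correlated as well. Among the 15536 other named genes Tgfb1 ranked 390, Inhbb 797, Tgfbi 1561 and Fst 1839.

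Other genes of the pathway, 66 in 6 lists, were set beside the members. Of 60 that were tested, 26 were called higher and 10 lower on DSS in Flox, and 27 higher and 9 lower in GR iKO, and none was called between genotypes on water or on DSS, or for the interaction. Over all tested probes, 21.8% were called higher and 25.4% lower in Flox, and 19.1% higher and 19.8% lower in GR iKO. Between genotypes 7 of all tested probes were called on water, 6 on DSS and 0 for the interaction. The list counts below stand beside these shares, and the list medians beside the −0.09 and −0.02 of all probes.

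Of the genes that keep TGF-β latent or release it, 7 of 8 tested were called higher in Flox and 7 of 8 in GR iKO (median 1.44 and 1.38). Thrombospondin 1 (Thbs1), which can activate latent TGF-β, rose by 2.19 (SE 0.45) in Flox and 2.34 (SE 0.45) in GR iKO. The latent TGF-β binding proteins Ltbp2 and Ltbp3 rose by 2.14 (SE 0.26) and 2.08 (SE 0.26) in Flox and by 1.46 (SE 0.26) and 1.15 (SE 0.26) in GR iKO. Itgav, the αv chain of integrins that release TGF-β, rose by 1.5 (SE 0.19) and 1.93 (SE 0.19), with a dimmer second probe, well above background on 7 arrays, that was not called in Flox (0.78, adjusted p = 0.441).

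Of the 11 receptor genes tested, 5 were called higher and 1 lower in Flox and 5 higher and 2 lower in GR iKO (median 0.57 and 0.49). The co-receptors Tgfbr3 (1.65, SE 0.34 in Flox and 1.82, SE 0.34 in GR iKO) and Eng, endoglin, of endothelial cells (1.65, SE 0.18 and 1.47, SE 0.18), rose in both, as did the type II receptor Bmpr2 (1.44, SE 0.14 and 0.93, SE 0.14). On water, Tgfbr3 was well above background on 3 of 4 arrays in Flox and 1 of 4 in GR iKO. Acvr1c, the type I receptor ALK7, fell by 1.83 (SE 0.51) and 3.01 (SE 0.51). Among the 10 other ligands tested, 1 was called higher and 2 lower in each genotype (median −0.25 and −0.11). Inha, the inhibin α subunit that pairs with the products of Inhba and Inhbb, rose by 2.01 (SE 0.34) and 1.81 (SE 0.34) from a level near background, above it on 2 of 4 water arrays per genotype. Bmp5 and Bmp2 fell by 2.58 (SE 0.38) and 1.97 (SE 0.46) in Flox, whereas in GR iKO their changes were −0.77 (SE 0.38, adjusted p = 0.13) and −0.44 (SE 0.46, adjusted p = 0.48). Inhbc was called lower in GR iKO, but was not well above background on any DSS array and on only 2 of the 4 GR iKO water arrays, so it had a bound of at least 1.03-fold lower, and its difference of −1.48 became 0.19 with the normexp background.

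Of the 6 SMAD genes tested, 2 were called higher and 2 lower in Flox, and 2 higher and 1 lower in GR iKO (median −0.10 and 0.30). The inhibitory Smad6 fell by 1.34 (SE 0.19) and 1.16 (SE 0.19). Among the receptor-activated SMADs, Smad1 rose by 0.71 (SE 0.23) in Flox and 0.71 (SE 0.23) in GR iKO, with another probe that was not called (−0.11 and 0.31). Smad5 rose by 0.57 (SE 0.15) in Flox, where its 2 other probes were not called, and was at 0.16 (SE 0.15, adjusted p = 0.439) in GR iKO. Smad3 rose by 0.68 (SE 0.18) in GR iKO and was at 0.03 (SE 0.18, adjusted p = 0.92) in Flox.

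Of the 12 inhibitors tested, 6 were called higher and 2 lower in each genotype (median 0.57 and 0.69). The secreted BMP antagonist gremlin (Grem1) rose 25-fold in Flox (4.64, SE 0.39) and 16.9-fold in GR iKO (4.08, SE 0.39), and chordin (Chrd) rose by 1.46 (SE 0.27) and 1.71 (SE 0.27). Decorin (Dcn), a matrix proteoglycan that binds TGF-β and is also on the fibroblast list, rose by 1.56 (SE 0.22) and 1.32 (SE 0.22). The SMAD corepressor Tgif1 fell by 1.61 (SE 0.28) and 0.79 (SE 0.28), the latter called in 15 of 25 alternative settings.

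Genes often used as targets of the pathway went both ways. Of 13 tested, 5 were called higher and 3 lower in Flox, and 6 higher and 2 lower in GR iKO (median 0.47 and 0.49). Timp1, an inhibitor of matrix metalloproteinases, rose 27.4-fold in Flox (4.77, SE 0.35) and 43.6-fold in GR iKO (5.45, SE 0.35). Fn1, fibronectin, rose by 1.66 (SE 0.47) in Flox. In GR iKO it was at 1.24 (SE 0.47, adjusted p = 0.0512), and another probe was called higher there (1.43, adjusted p = 0.0342). A further Fn1 probe, well above background on 10 arrays, was called in neither genotype. Its GR iKO change was 0.36 (adjusted p = 0.825), and its Flox change was 1.93 (adjusted p = 0.175). The cell cycle inhibitor Cdkn2b fell by 1.94 (SE 0.34) and 1.36 (SE 0.34).

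**Figure D5:**
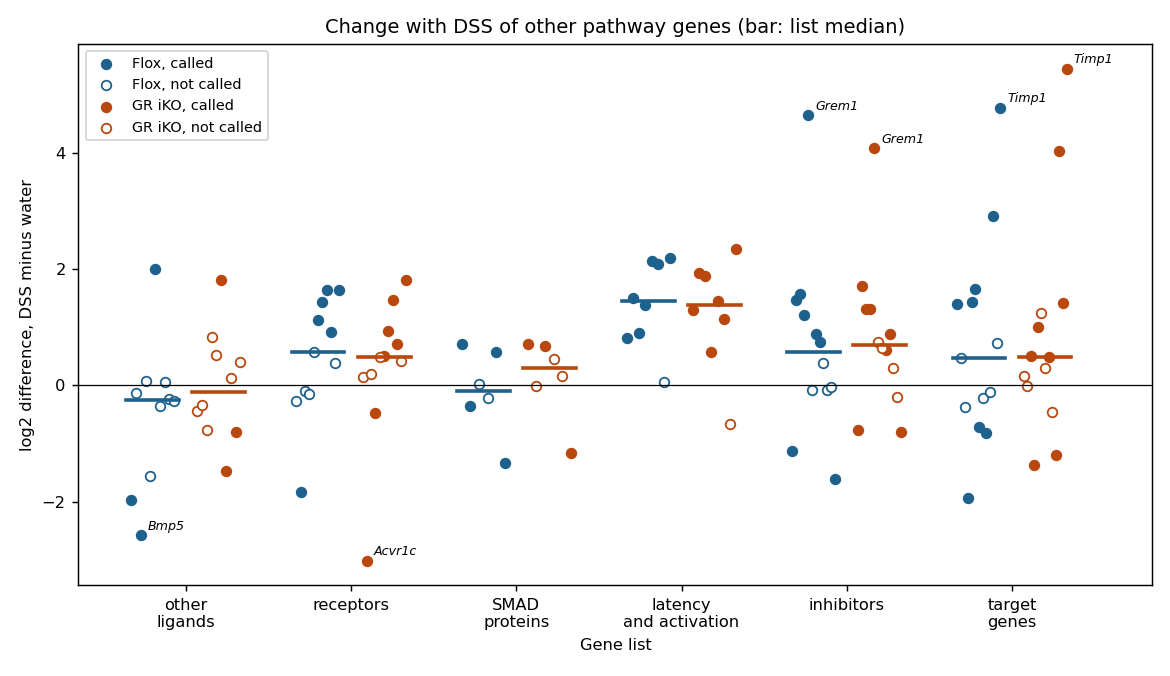
Change with DSS of 60 other pathway genes in 6 lists, in Flox (blue) and GR iKO (orange), as log2 difference of DSS minus water on values relative to each array's 75th percentile. Each point is 1 gene, filled if called at an adjusted p under 0.05, and bars mark list medians. Genes of latency and activation lie mostly above 0 (median 1.44 and 1.38), while the other lists hold genes on both sides.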

How the data were processed

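Values come from 14 arrays, and groups from the sample labels. Per the file headers and processing notes, the authors extracted intensities with Agilent Feature Extraction 12.0.0.7, and a deposited intensity is a background-subtracted processed signal on a linear scale, with small values raised to a positive surrogate, which can shrink changes of dim probes. The deposited value table holds log2 values with equal array medians (6.05), whose normalization is not given in the sources used here. Partek 6.6 is also named. The array test of the study was not used here.

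In the present work, 1639 of 45018 spots per array (controls) and outlier spots were left out, spots of a probe were averaged, and log2 processed intensity minus the 75th percentile of the array was analysed. Probes well above background on at least 3 of 14 arrays were tested (29520). Of 29245 probes with a RefSeq accession, 28223 matched a symbol in a gene table of assembly GRCm38.p6. The array grid is on mm9, so no coordinates are given beyond the promoters. The brightest tested probe stood for a gene.

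Group means were fitted with limma 3.58.1 in R 4.3.3 over all 14 arrays, with array weights estimated for water (1.69) and DSS (0.497), and p values were two-sided and Benjamini-Hochberg adjusted within each of 5 comparisons. Nr3c1 was tested by exact permutation of arrays. Where a group was not well above background on any array, the fold is a bound from the lowest signal well above background on each array. The number of arrays limits the precision. The fit was tested on simulated data.

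The members and gene lists were chosen with earlier results of these data known. The text names all members, Nr3c1, the 5 genes most like Inhba, and up to 4 called genes per list with the largest change. Among these, 1 target gene is not reported here. Lists of epithelial, fibroblast, smooth muscle, endothelial, macrophage, neutrophil and T cell markers were measured (endothelial markers were at 0.67 to 0.83 in Flox DSS and 0.11 to 1.41 in GR iKO DSS colons, T cell markers at −0.83 to −0.19 and −0.03 to 0.56). Alternatives varied weights, arrays, background correction (normexp on the median spot signal, offset 50), normalization, filter, probe rule, blocks by slide and by replicate number, and left out each array.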

Additional observations from a re-analysis of the deposited data

Results flagged for a closer look

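Over 20 groups of 4 water arrays (10 members in 2 genotypes), 2 held an array whose gap to the nearest other array was above Dixon's 95% critical value, where chance gives about 1 in 20. Tgfb1 in GR iKO water replicate 2 was at −2.48, and its 3 other arrays were at −3.04 to −2.98. Acvr1 in Flox water replicate 4 was at −0.28, and its 3 other arrays were at 0.01 to 0.03.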

How the results depend on the processing

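The count of called members on DSS in Flox (9) was 8 or 9 in all alternatives other than leaving out an array, which gave 4 to 9, and in GR iKO (5) it was 5 to 7, or 5 to 6 leaving out an array. Between genotypes on water it was 0 in all 25 alternatives. Between genotypes on DSS it rose from 0 to 2 (Inhba and Tgfb2) with 1 unweighted spread and with a separate weight for each array, and to 1 (Inhba) with the normexp background, quantile normalization, the deposited value table and no filter on dim probes. Leaving out an array gave 0 to 1, with Inhba called without Flox DSS replicate 4, GR iKO water replicate 2 or GR iKO DSS replicate 3. For the interaction it rose from 0 to 1 (Inhba) with 1 unweighted spread, with separate array weights and with normexp, and was 0 to 1 leaving out an array (1 without GR iKO DSS replicate 3). The interaction could not be fitted with only the groups compared. Inhba was chosen with its genotype difference known, so its calls in these settings are a description and not a test. Over all probes the calls between genotypes on DSS went from 6 to 3903 with 1 unweighted spread, 4453 with separate weights, 826 without Flox DSS replicate 4, 732 without GR iKO DSS replicate 3 and 0 with a slide block. Interaction calls went from 0 to 33 and 2957 with the first 2 of these. Calls on DSS in Flox fell from 13949 to 9190 without Flox DSS replicate 1. The cause was not tested.

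Among the members, the differences that changed sign were uncalled. Outside the members, Inhbc on DSS in GR iKO was called lower and became 0.19 with the normexp background. Acvr1 on DSS in Flox became 0.073 with separate weights and 0.0098 with normexp, and ran from −0.12 to 0.13 (without Flox DSS replicate 4) leaving out an array, and its genotype difference on DSS became −0.053 with separate weights. The Tgfbi interaction became 0.023 with normexp and ran from −0.26 to 0.0080 (without GR iKO DSS replicate 3). Smad7 on DSS in GR iKO ran from −0.23 to 0.032 (without GR iKO DSS replicate 1). With the mean of both probes, Inhbb between genotypes on DSS went from 0.48 to −0.10 and its interaction from 0.55 to −0.28. Nr3c1 on water was −0.84 (exact permutation p = 0.143) at 1 of its 3 other probes and −0.88 and −1.07 at the rest. At its brightest probe it was −0.86 to −0.74 on water and −0.93 to −0.74 on DSS leaving out an array.

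Replicate numbers are shared between groups, and the correlation of deviations was over 0.1 in 9 of 18 same-numbered pairs (r of −0.23 to 0.31, mean 0.069) and in 11 of 55 other pairs (mean −0.022). Pairs of arrays on the same slide had a correlation over 0.1 in 9 of 18 (mean 0.068). The numbers were not treated as pairs because the correlation was not over 0.1 in every same-numbered pair. That rule cannot exclude a pairing of the replicates. With the replicate block 9 members were called on DSS in Flox, 7 in GR iKO and 0 in the other comparisons.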
